A study of Mus musculus with 16 samples.

Results

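The ribosome is built from a small and a large subunit, each of which joins ribosomal RNA to a set of ribosomal proteins. The protein-coding genes of those proteins in the mouse genome, and the open chromatin at and around them, were followed here in germinal center B cells with and without a heterozygous loss of Smarca4, which encodes the chromatin remodeler ATPase Brg1. Members were chosen by name: RefSeq protein-coding genes whose symbol is Rpl or Rps followed by a digit, or is Rplp0, Rplp1, Rplp2 or Rpsa, with the Rps6k kinases left out. The rule found 91 of 21900 protein-coding genes. A peak of the deposited table belonged to a member when its middle lay in the gene span or within 1 kb of it, which gave 161 of 82188 peaks at 81 genes.

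Omni-ATAC, an assay in which a transposase cuts and tags open chromatin, was run on 16 libraries from the spleens of C57BL/6 mice aged 8 to 10 weeks. The groups, of 4 libraries each, were Smarca4+/+ (WT) CB, Smarca4+/- (HET) CB, WT CC and HET CC. The abbreviations are taken to mean centroblast, the dividing dark zone cell, and centrocyte, the light zone cell that is selected by antigen and T cell help, since the labels do not spell them out. No sort gate, treatment or Cre driver was named for any group, and whether replicates were separate animals was not stated, so that every p-value measures only the spread between these libraries, which may be technical.

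Ribosomal proteins are among the most abundant products of a growing cell, and their output is matched to growth by control of both transcription and translation. Their messages start with a C followed by a run of pyrimidines, the 5' terminal oligopyrimidine (TOP) sequence, through which the kinase mTORC1 and the RNA-binding protein Larp1 set how strongly they are translated. In the germinal center, Myc and mTORC1 are induced in cells that receive T cell help, and both promote the making of ribosomes. ATAC-seq reports how accessible a stretch of chromatin is and not how much of a gene is transcribed, so no value below is a level of RNA or protein.

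Promoters of 8 members are shown because their start peaks carry the contrasts described further on: 6 rose from CB to CC with small p-values, and those of Rpl13 and Rpl6 were the only member start peaks that fell. Each sequence runs 5' to 3' on the gene's strand from 150 bases before the RefSeq start, and its last 30 bases begin at that start (RefSeq, GRCm38.p6, the assembly denoted by mm10). Capitals mark the letters CTTTCC, the Ets or GABP type sequence CCGGAAG, and the palindrome CTCGCGAG, known from housekeeping promoters, where either strand reads so. The windows are chr10:23787180-23787359, minus strand for Rps12, chr15:5116463-5116642, plus strand for Rpl37, chr5:115559317-115559496, plus strand for Rplp0, chr7:45128716-45128895, minus strand for Rpl13a, chr4:86857338-86857517, minus strand for Rps6, chr14:18270957-18271136, minus strand for Rpl15, chr8:123102200-123102379, plus strand for Rpl13 and chr5:121204351-121204530, plus strand for Rpl6.
Rps12: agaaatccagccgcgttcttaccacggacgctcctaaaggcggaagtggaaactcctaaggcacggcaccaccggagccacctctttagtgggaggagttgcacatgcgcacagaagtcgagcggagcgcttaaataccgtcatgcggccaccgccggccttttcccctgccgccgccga
Rpl37: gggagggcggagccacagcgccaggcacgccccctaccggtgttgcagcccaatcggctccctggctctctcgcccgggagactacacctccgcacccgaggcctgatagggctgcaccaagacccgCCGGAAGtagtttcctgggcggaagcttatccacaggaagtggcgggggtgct
Rplp0: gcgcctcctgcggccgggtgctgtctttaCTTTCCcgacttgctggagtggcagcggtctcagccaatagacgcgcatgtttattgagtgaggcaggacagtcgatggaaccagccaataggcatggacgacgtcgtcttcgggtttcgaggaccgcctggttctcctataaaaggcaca
Rpl13a: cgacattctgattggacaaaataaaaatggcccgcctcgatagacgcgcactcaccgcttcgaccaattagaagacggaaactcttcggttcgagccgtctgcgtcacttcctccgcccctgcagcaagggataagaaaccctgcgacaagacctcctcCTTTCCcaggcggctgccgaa
Rps6: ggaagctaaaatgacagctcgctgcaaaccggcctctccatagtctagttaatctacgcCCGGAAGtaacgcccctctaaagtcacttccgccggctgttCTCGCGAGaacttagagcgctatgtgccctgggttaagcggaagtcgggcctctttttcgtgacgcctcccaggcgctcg
Rpl15: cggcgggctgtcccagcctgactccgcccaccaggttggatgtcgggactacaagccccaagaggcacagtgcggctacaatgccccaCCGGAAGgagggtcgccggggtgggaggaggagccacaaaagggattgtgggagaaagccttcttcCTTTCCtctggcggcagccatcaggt
Rpl13: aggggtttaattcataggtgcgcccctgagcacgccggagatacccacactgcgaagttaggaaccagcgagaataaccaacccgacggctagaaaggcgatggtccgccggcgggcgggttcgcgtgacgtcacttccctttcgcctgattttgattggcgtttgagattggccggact
Rpl6: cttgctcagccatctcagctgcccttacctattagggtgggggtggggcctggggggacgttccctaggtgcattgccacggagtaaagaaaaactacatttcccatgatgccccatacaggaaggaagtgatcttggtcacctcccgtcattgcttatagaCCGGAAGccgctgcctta

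The promoters of the members shared letters that the selection by name had not used. RefSeq gave a start and 300 bases around it (250 before, 50 after) for 70 of the 91 members, and these were compared with 17492 protein-coding genes. CTTTCC, read on either strand as CTTTCC or GGAAAG, was present in 52.9% of member promoters against 28.8% of all. CCGGAAG stood in 37.1% against 12.9%, and CTCGCGAG in 7 of the 70 against 1.41%. The letters CTCGCGAG were chosen after values were seen, so their share is only a description.

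Other short sequences were searched too. GGGCGG, the GC box, was in 58.6% of member promoters and 49.2% of all. TATAA was in 28.6% and 25.2%, and CACGTG, the E-box that Myc can bind, in 8.57% and 8.91%. CCAAT was in 31.4% of members and 42.3% of all, and TGACGTCA, the cyclic AMP response element, in 7.14% and 2.54%. The 8 sequences were searched separately, each on both strands, so matches of different sequences may overlap. A match is a run of letters and not a bound site. The comparison depends on the genes set beside the members. Among genes with a start peak, GGGCGG was in 64.8% of 54 members and 71.9% of 8469 genes, TATAA in 25.9% and 15.1%, and CCGGAAG in 38.9% and 21.5%.

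The first transcribed base was a C at 30.5% of 82 RefSeq starts of members and at 13.8% of 21263 starts of all genes. At least 5 of the first 6 bases were pyrimidines at 31.7% and 10.9% of starts, respectively. These shares describe annotated starts, which need not be the position used in B cells.

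The 81 members with a peak comprised 42 of 43 large subunit genes, 28 of 31 small subunit genes, all 3 genes of the P stalk (Rplp0, Rplp1 and Rplp2, which recruit elongation factors to the large subunit), 7 of 13 paralogs or retrocopies, and Rps19bp1. The last meets the naming rule but encodes a binding partner of Rps19 and not a ribosomal protein. No peak lay in the windows of Rps10, Rps18, Rps28 and Rpl10a, nor in those of Rpl10l, Rpl32l, Rpl39l, Rps23rg1, Rps27rt and Rpl31-ps12. These 10 genes are not analysed here.

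Most member loci were compact. A single peak lay at 25 genes, 2 at 36, 3 at 16 and 4 at 4 genes, Rpl3, Rpl4 and Rps19 among them. A peak is 501 bp wide, so a peak whose middle was within 250 bp of the start covered it. Such a start peak was found at 54 of the 60 members with a peak and a listed start, the exceptions being Rpl10, Rpl37rt, Rpl3l, Rplp2, Rps23 and Rps25. Its middle was upstream of the start at 41 of the 54, with a median position of -46 bp. A further 23 member peaks lay from 251 to 1000 bp downstream, 18 lay upstream over the same distance, 22 lay farther away, and 44 belonged to the 21 members without a listed start. Of the 161 peaks, 39, at 21 genes, also fell in the window of another protein-coding gene and cannot be assigned to the member alone.

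Levels are given as CPM, counts scaled to the size of the library and adjusted by the trimmed mean of M-values (TMM), summed over the peaks of a gene where a gene is named. Depth differed strongly between the cell labels: libraries held 31696941 to 51011923 counts in CB and 3494356 to 7474760 in CC. The median member peak had 874 counts in a CB library and 108 in a CC library, and the lowest had 5. Correlations between replicates over all peaks were 0.989 to 0.995 in CB and 0.909 to 0.95 in CC. Counts come from amplified libraries and are not independent molecules.

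Accessibility over Smarca4 itself averaged 160 ± 5.99 CPM in WT CB and 150 ± 2.63 in HET CB, and 142 ± 12.1 in WT CC and 130 ± 7.46 in HET CC (SD, n = 4). The HET values were lower by 0.09 and 0.13 on the log2 scale, with adjusted p-values of 0.514 and 0.198 (edgeR quasi-likelihood test). Which part of the allele was deleted is not stated, so this is no check of the genotype labels.

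In absolute terms the member start peaks were ordinary for promoters of these cells. Across the 54 start peaks the level ran from 14.1 to 65.2 CPM in WT CB with a median of 31.1, beside a median of 28.9 for 8459 start peaks of all genes. In WT CC the range was 13.9 to 107 CPM, with a median of 37.0 against 29.6 for all. The member median was 31.0 against 29.4 in HET CB and 32.8 against 28.8 in HET CC. The number of member start peaks above the median of all start peaks was 31 of 54 in each CB group, 37 in WT CC and 38 in HET CC.

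Per peak, levels were high at Rpl13a, with 64.7 CPM averaged over all libraries, and at Rpl30, with 59.5. The lowest belonged to Rpl34-ps1 with 3.16 CPM, Rpl37rt with 4.23, and Rpl3 with 11.1 over its 4 peaks. Rpl34-ps1 and Rpl37rt are retrocopies, so reads of the parent gene may be split with them, depending on how the authors treated reads that map to several places, a step the sources used here do not give.

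The share of each library's counts that fell in the 161 member peaks was larger in CC than in CB, with start peaks and downstream peaks going different ways. It ran from 0.377% to 0.405% in WT CB and from 0.384% to 0.401% in HET CB. For CC it was 0.448% to 0.454% in WT libraries and 0.430% to 0.458% in HET libraries, so that the CB and CC ranges did not overlap in either genotype, while those of the genotypes did. The share of all counts near gene ends rose as well, from 41.6% to 42.8% in CB to 44.3% to 45.8% in CC.

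The 54 start peaks held 0.180% to 0.191% of counts in CB of either genotype and 0.204% to 0.224% in CC. Downstream peaks held 0.0319% to 0.0366% in CB and 0.0282% to 0.0341% in CC, where the ranges overlap. Start counts divided by downstream counts came to 5.17 to 5.73 in CB, and in CC to 6.34 to 7.82 for WT and 6.31 to 7.25 for HET. The same ratio over all genes rose from between 3.10 and 3.25 to between 3.66 and 4.10, so a higher ratio in CC was not limited to ribosomal protein genes. Counts of member start peaks as a share of the counts of all start peaks were 0.700% to 0.742% in CB, and in CC 0.753% to 0.762% for WT and 0.731% to 0.779% for HET.

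**Figure D1:**
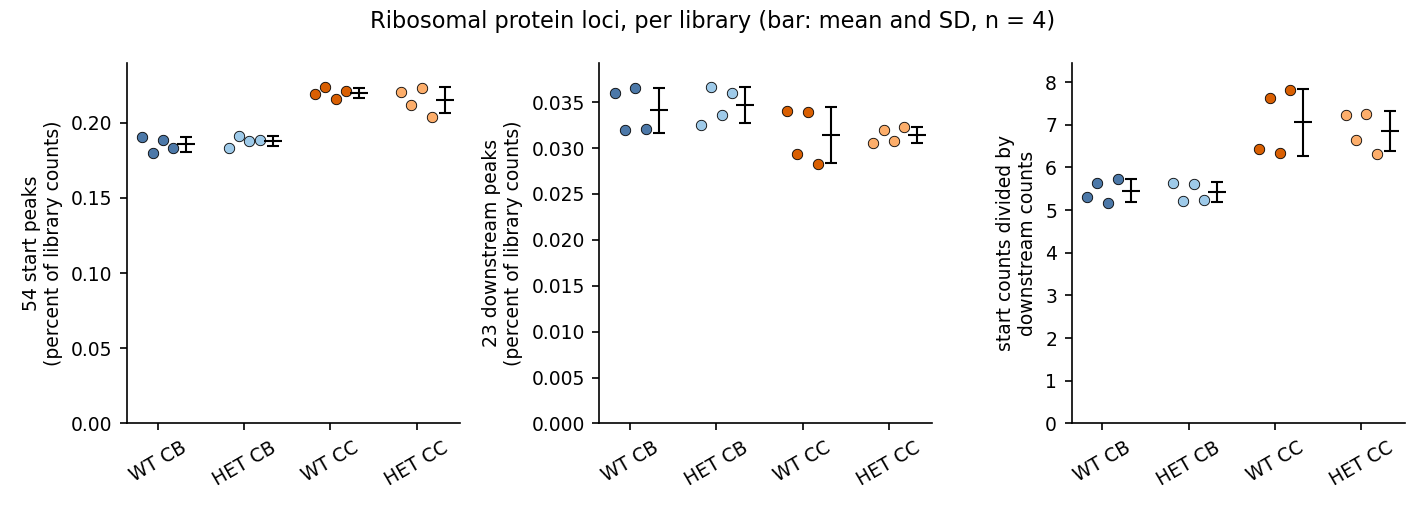
Percent of each library's counts in the 54 start peaks (left) and the 23 downstream peaks (middle) of ribosomal protein genes, and the ratio of these counts (right), for each group. Points are libraries and the bar gives mean and SD (n = 4). Start peaks take 0.204% to 0.224% of CC counts and 0.180% to 0.191% of CB counts, while the downstream shares overlap.

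The comparison of CC with CB asks how the chromatin of these genes differs between the germinal center cell states. In WT, 40 of the 81 members were more accessible in CC and 5 less, at an adjusted p below 0.05 by edgeR's quasi-likelihood test (Benjamini-Hochberg over all 14402 genes with a peak). That is 49.4% higher and 6.17% lower, where the background over all genes was 37.1% higher and 25.7% lower. The median log2 change was 0.19 for members and 0.06 for all genes. In HET, 30 members were higher and 3 lower, or 37.0% and 3.70%, with a background of 33.1% and 28.6%, and the medians were 0.11 and 0.02.

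Beside all genes, a larger share of members rose in WT and a smaller share fell in either genotype. With the gene span alone, which drops peaks before a start and leaves 52 members, 26.9% rose in WT beside 30.7% of all genes (median 0.07), and in HET 23.1% rose beside 28.3%, with a median of -0.03. In HET 7 of the 52 then fell, beside 4146 of 12558 genes. A log2 change above 0, called or not, was seen for 67 of 81 members in WT and 56 of 81 in HET, against 55.9% and 52.3% of all genes. The libraries of CB and CC did not overlap for 33 members in WT and 32 in HET, or 40.7% and 39.5%, against 53.0% and 55.7% of all genes. The changes were small in size: no member reached a log2 change of 1 when its peaks were summed.

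Of the 81 genes, 28 were called higher in both genotypes, 1 was called lower in both, none was called in opposite directions and 32 were called in neither. The genotypes' changes had r = 0.884 across the 81 genes, which share the libraries they were measured in and are not independent replicates. The same counts and correlation over all genes are not given here, so this agreement is not read as a trait of the members.

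**Figure D2:**
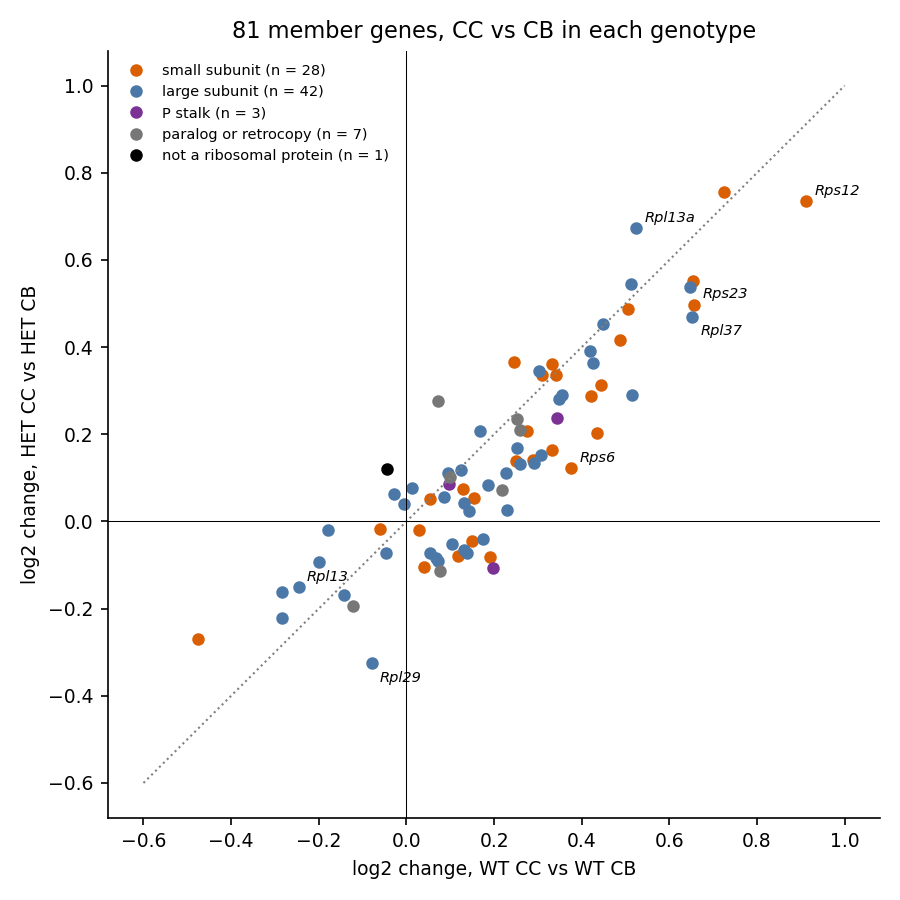
Log2 change of accessibility from CB to CC in WT (horizontal) and HET (vertical) for 81 ribosomal protein genes, colored by subunit, with the dotted line marking equal changes. Rps12 lies farthest to the right (0.91 in WT, 0.74 in HET), and Rpl29 has the lowest HET value (-0.33, with -0.08 in WT).

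Cell identity markers moved in the same comparison and are given here once. Summed CPM of 8 B cell genes was 1200 to 1320 in CB and 978 to 1136 in CC, and that of 8 germinal center genes was 957 to 983 in CB, 631 to 697 in WT CC and, higher than there, 716 to 815 in HET CC. Of 10 T cell genes 9 had a peak, Lck being without one, and their sum was 238 to 250 CPM in CB, 351 to 437 in WT CC, and 302 to 353 for HET CC. Of 7 myeloid genes 5 had a peak (not Lyz2 and S100a8), with sums of 35.2 to 43.3 CPM in CB and 89.8 to 116 in CC, and of 6 NK cell genes 3 had a peak (not Gzmb, Klrk1 and Ncr1), with 13.2 to 17.4 CPM in CB and 31.9 to 47.8 in CC. Of 5 erythroid genes 3 had a peak (not Gata1 and Hbb-bt), with 49.9 to 57.7 CPM in CB and 44.7 to 64.6 in CC. Sums weigh the most open genes. Median log2 changes in WT and HET were 1.66 and 1.54 for T cell, 1.51 and 1.55 for myeloid and 2.12 and 2.18 for NK cell genes. They were 0.49 and 0.34 for erythroid genes, -0.16 in both for B cell genes, and -0.74 and -0.49 for germinal center genes. The part of such cells, or of the lower CC depth, in the changes of ribosomal protein genes was not tested beyond the thinning of all libraries to 1 depth, and in bulk libraries a different mix of cells and a different state per cell cannot be told apart.

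Of the small subunit genes many were higher in CC. Of 28, 18 rose in WT and 14 in HET, with median log2 changes of 0.30 and 0.18, and 1 fell in each genotype. Beside them, 37.1% of all genes rose and 25.7% fell in WT, and 33.1% rose and 28.6% fell in HET. Rps12, which encodes a protein of the small subunit head, had the largest change of any member in WT. Its only peak covers the start and held 30.3, 30.8, 30.8 and 29.7 CPM in WT CB and 52.5, 60.4, 65.7 and 50.6 in WT CC. In HET the values were 32.0, 30.8, 31.3 and 29.5 in CB and 56.2, 47.9, 53.0 and 49.0 in CC. All CC libraries were far above all CB libraries, for a log2 change of 0.91 ± 0.081 in WT (SE, adjusted p = 2.13e-12) and 0.74 ± 0.074 in HET (adjusted p = 4.78e-11). The promoter of Rps12 printed above holds none of the 3 marked sequences.

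Rps23 encodes a protein of the decoding center. It had 2 peaks that flank the start, the middle of one 279 bp before it and of the other 254 bp after it. The upstream peak held 38.5, 39.1, 35.7 and 38.9 CPM in WT CB and 72.0, 81.3, 64.0 and 72.2 in WT CC, a change of 0.93 ± 0.074 (adjusted p = 8.2e-16). The other held 41.2, 40.6, 40.0 and 40.2 CPM in WT CB and 44.2, 52.7, 49.6 and 59.1 in WT CC. The stretch before the start rose in every WT CC library by more than the stretch after it, and summed over both the gene rose by 0.66 in WT and 0.50 in HET.

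At Rps9 the largest change was at a peak 215 bp outside the gene, on the side away from the start. It rose by 1.16 ± 0.16 in WT and 0.87 ± 0.14 in HET, from between 6.74 and 8.20 CPM in WT CB to between 13.0 and 20.9 in WT CC. The start peak of Rps9 changed by 0.22 (adjusted p = 0.0478) in WT. Whether such a peak outside a gene acts on the member or on a neighbor cannot be read from accessibility.

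Among small subunit genes with a role in disease or outside the ribosome, Rps19, the gene most often mutated in Diamond-Blackfan anemia, rose by 0.49 ± 0.065 in WT and 0.42 ± 0.060 in HET. An upstream peak centered 562 bp before its start went from 34.0, 29.9, 35.8 and 30.1 CPM in WT CB to 60.9, 64.2, 44.5 and 55.5 in WT CC. Rps27a, which encodes ubiquitin fused to a ribosomal protein, rose by 0.33 in WT and 0.36 in HET, from 98.6 to 103 CPM in WT CB to 116 to 134 in WT CC. Rps14, whose loss of 1 copy underlies the anemia of the 5q- syndrome, rose by 0.28 (adjusted p = 0.00924) and 0.21 (adjusted p = 0.026), and in WT without WT CC library 4 the change was 0.12 with an adjusted p of 0.243. In HET the adjusted p of Rps14 was 0.0542 and 0.0565 without HET CB libraries 1 and 3 and 0.0732 without HET CC library 1.

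Rps15, recurrently mutated in chronic lymphocytic leukemia, rose in WT by 0.33 (adjusted p = 0.00777), while the HET change was 0.16 (adjusted p = 0.146). The difference between the genotypes' changes was -0.17 with an adjusted p of 0.647. Rps3, which also has a part in DNA repair and in NF-kappaB signaling, changed by 0.13 (adjusted p = 0.186) and 0.07 (adjusted p = 0.399). Rpsa, the laminin receptor precursor, whose haploinsufficiency in people leads to a missing spleen, changed by 0.03 (adjusted p = 0.75) and -0.02 (adjusted p = 0.819). Its summed level stayed between 50.9 and 62.5 CPM in all 16 libraries.

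**Figure D3:**
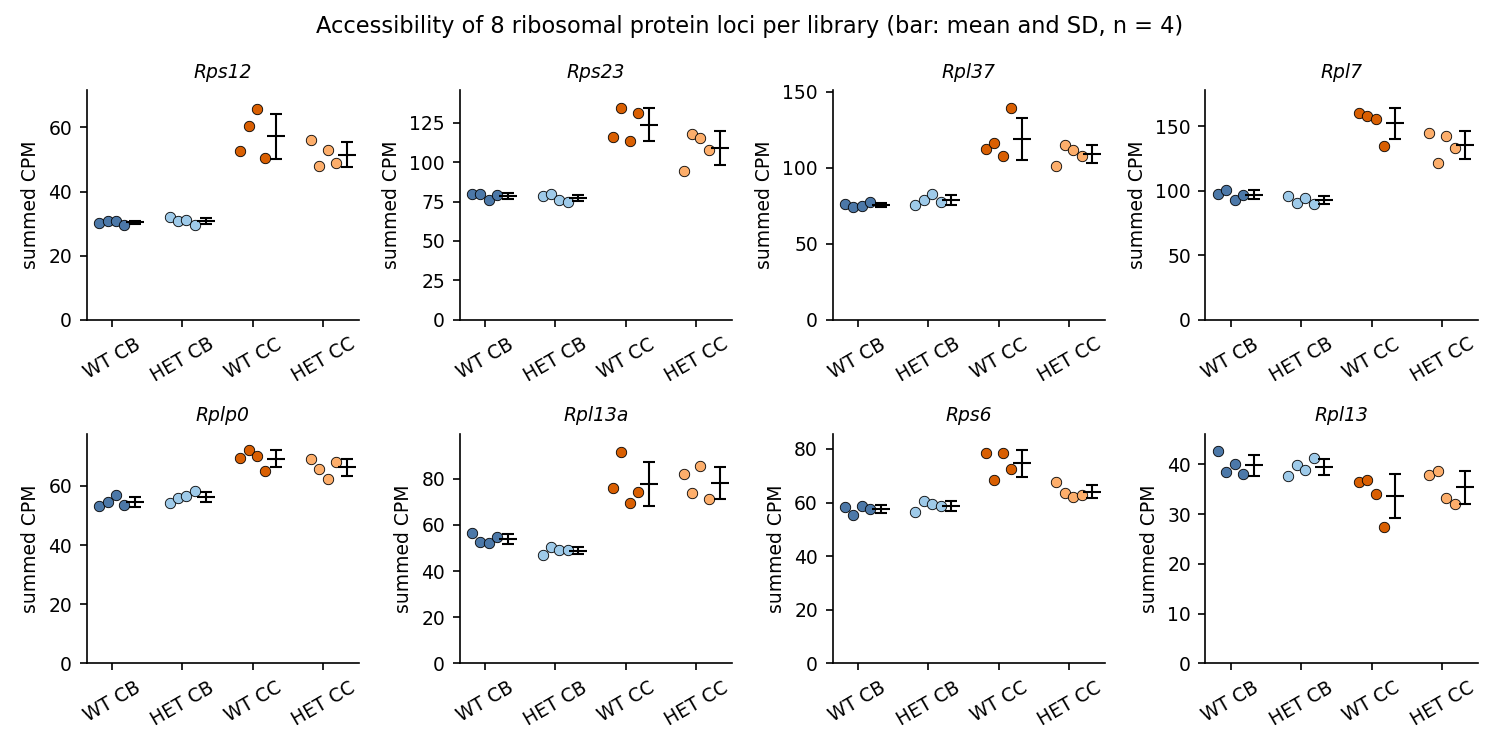
Accessibility in TMM-scaled CPM, summed over the peaks of a gene, of 8 ribosomal protein genes in the 16 libraries, with mean and SD (n = 4) beside the points. At Rps12, Rps23, Rpl37, Rpl7, Rplp0 and Rpl13a all CC libraries lie above the CB libraries of their genotype, at Rpl13 WT CC lies below WT CB, and at Rps6 WT CC (68.6 to 78.6 CPM) lies above HET CC (62.1 to 67.6).

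Of the large subunit genes fewer than 1 in 2 rose, and the difference from the small subunit was not tested. Of 42, 19 were higher and 4 lower in WT, and 13 higher and 2 lower in HET, with medians of 0.14 and 0.07. The shares higher, 45.2% in WT and 31.0% in HET, stand beside 37.1% and 33.1% of all genes. Rpl37 had the largest WT change of the large subunit, with Rpl7, each by 0.65 ± 0.06 (adjusted p = 1.13e-11 and 1.85e-12). Rpl37 held 76.3, 74.5, 74.7 and 77.2 CPM in WT CB and 112, 116, 108 and 139 in WT CC, and in HET 75.6, 78.9, 83.0 and 77.3 in CB and 101, 115, 112 and 108 in CC. Its start peak rose by 0.71 in WT and 0.52 in HET, while the peak 808 bp downstream, at 9.10 to 11.5 CPM in WT CB and 8.62 to 16.6 in WT CC, did not pass the test.

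Rpl7 held 97.5, 101, 93.4 and 96.9 CPM in WT CB and 160, 158, 156 and 135 in WT CC. In HET it held 96.5, 91.0, 94.8 and 90.2 in CB and 145, 122, 143 and 133 in CC, a change of 0.54 ± 0.054 (adjusted p = 4.4e-11). All 3 of its peaks rose in both genotypes, by 0.52 to 0.74 in WT and 0.46 to 0.63 in HET, so the rise was spread over the locus.

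Rpl13a, which also joins the interferon-activated translational inhibitor complex, had 1 peak, at its start. It held 56.6, 52.5, 52.1 and 54.9 CPM in WT CB, 47.0, 50.6, 49.0 and 49.0 in HET CB, 75.9, 91.6, 69.3 and 74.4 in WT CC, and 82.2, 74.0, 85.7 and 71.1 in HET CC. The changes were 0.52 ± 0.073 in WT and 0.67 ± 0.066 in HET. Rpl30, a kink-turn RNA-binding protein, rose by 0.51 and 0.54, and Rpl3, close to the peptidyl transferase center, by 0.43 and 0.36.

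Rpl5 and Rpl11 form the 5S particle that binds Mdm2 when ribosome assembly fails. Rpl5 rose by 0.26 ± 0.078 in WT (adjusted p = 0.00388) and its HET change was 0.13 (adjusted p = 0.094). Its start peak held 21.9, 20.6, 23.3 and 22.7 CPM in WT CB and 32.2, 35.3, 34.4 and 33.7 in WT CC, while its downstream peak held 18.1 to 22.3 in WT CB and 12.9 to 21.1 in WT CC. The start peak thus rose by 0.61 in WT, and the peak after it changed by -0.26 with an adjusted p of 0.0758. Rpl11 changed by 0.13 (adjusted p = 0.324) in WT and -0.06 (adjusted p = 0.608) in HET.

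Rpl10, which is mutated in T cell leukemia, rose by 0.31 in WT (adjusted p = 0.00674) and changed by 0.15 in HET (adjusted p = 0.134). With thinned libraries the WT call of Rpl10 was lost (0.27, adjusted p = 0.0717). Rpl22, needed for the development of alpha-beta T cells, rose by 0.19 in WT (adjusted p = 0.0282), a call lost when WT CC library 2 (adjusted p = 0.15) or 4 (0.0923) or WT CB library 2 (0.0537) or 4 (0.0552) was left out, and with total counts (0.0845) or scaling from gene ends (0.112).

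The large subunit also held the members that fell in 1 genotype. In WT these were Rpl13 (-0.25, adjusted p = 0.019), Rpl8 (-0.28, adjusted p = 0.0215), Rpl4 (-0.20, adjusted p = 0.0334) and Rpl6 (-0.28, adjusted p = 0.0476). Rpl13 held 42.7, 38.5, 40.2 and 38.0 CPM in WT CB and 36.4, 36.8, 34.1 and 27.4 in WT CC, without overlap, whereas the WT CB and CC libraries of the other 3 overlapped. The start peak of Rpl13, from 31.7 to 35.8 CPM in WT CB, averaged 26.2 ± 3.33 in WT CC (SD, n = 4, log2 change -0.35, adjusted p = 0.00303).

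These calls were lost when single libraries were left out. Without WT CC library 4, Rpl13 changed by -0.16 (adjusted p = 0.152) and Rpl4 by -0.15 (adjusted p = 0.151). Without WT CC library 2, Rpl4 changed by -0.11 (adjusted p = 0.271) and Rpl8 by -0.21 (adjusted p = 0.117). Without WT CC library 3, Rpl8 changed by -0.19 (adjusted p = 0.146). Without WT CB library 1 the adjusted p was 0.0562 for Rpl13 and 0.0755 for Rpl4, and without WT CB library 3 it was 0.0666 for Rpl4 and 0.0539 for Rpl8. For Rpl6 it was 0.078 and 0.13 without WT CB libraries 1 and 3, and 0.134, 0.127 and 0.0778 without WT CC libraries 1, 2 and 4. With all libraries thinned to 1 depth, Rpl13 (adjusted p = 0.0814), Rpl4 (0.0559) and Rpl6 (0.13) were not called.

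In HET, Rpl29, a heparin-binding ribosomal protein, fell by 0.33 on the log2 scale (SE 0.070, adjusted p = 0.000108), and Rpl14 fell by 0.17 (adjusted p = 0.0317). Rpl29 held 65.9, 75.7, 71.2 and 73.3 CPM in HET CB and 47.8, 60.2, 61.5 and 58.5 in HET CC, and in WT 63.8 to 66.3 in CB and 55.0 to 70.3 in CC. Its WT change was -0.08 (adjusted p = 0.381), and the difference between the genotypes was -0.25 with an adjusted p of 0.274. Without HET CC library 1, Rpl14 changed by -0.12 with an adjusted p of 0.155. Its adjusted p was 0.0549, 0.053 and 0.0864 without HET CB libraries 1, 3 and 4, and 0.238 with thinned libraries.

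The P stalk genes differed among themselves. Rplp0 rose from 53.2, 54.7, 56.8 and 53.5 CPM in WT CB to 69.5, 72.1, 70.2 and 65.1 in WT CC, and from 54.4 to 58.2 in HET CB to between 62.5 and 69.0 for HET CC. Its changes were 0.34 ± 0.065 and 0.24 ± 0.058. Rplp1 changed by 0.20 (adjusted p = 0.0623) in WT and -0.11 (adjusted p = 0.277) in HET, and Rplp2 by 0.10 (adjusted p = 0.322) and 0.09 (adjusted p = 0.32). At Rplp0 the start peak rose by 0.56 in WT, the peak 418 bp downstream was at 12.4 to 14.8 CPM in WT CB and 13.1 to 15.9 in WT CC, and a weak peak 876 bp past the gene fell by 1.10 on the log2 scale, from 4.99 to 6.86 CPM down to 1.77 to 3.38.

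Of the 7 paralogs and retrocopies with a peak, 2 rose in WT and 2 in HET, or 28.6% in each, beside 37.1% and 33.1% of all genes. Rpl3l, which replaces Rpl3 in striated muscle, rose by 0.26 (adjusted p = 0.00995) and 0.21 (adjusted p = 0.0188), with 35.0 to 41.2 CPM in WT CB and 41.8 to 51.6 in WT CC, although none of its peaks covers its start. Both of its peaks lie outside the gene and also in the window of Msrb1, so they cannot be assigned to Rpl3l alone. The WT call was lost with thinned libraries (0.16, adjusted p = 0.203) and without WT CC library 3 (adjusted p = 0.0736), and the HET call without HET CB library 4 (0.0615) or HET CC library 3 (0.0915) or 4 (0.0553). Rpl36al rose in WT by 0.22 (adjusted p = 0.00163) and changed in HET by 0.07 (adjusted p = 0.257), and Rpl7l1 rose in HET by 0.28 (adjusted p = 0.00228) and changed in WT by 0.07 (adjusted p = 0.485). Rpl22l1, the paralog of Rpl22, changed by 0.10 in each genotype (adjusted p = 0.268 and 0.192). Rps27l, a p53 target, changed by 0.08 (adjusted p = 0.404) and -0.11 (adjusted p = 0.162). Rps19bp1 changed by -0.04 (adjusted p = 0.737) and 0.12 (adjusted p = 0.27).

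Peak by peak, 62 of the 161 member peaks rose and 18 fell in WT, beside 30.2% and 27.7% of all peaks, and 54 rose and 20 fell in HET, beside 30.8% and 28.1%. Of the rises, 33 in WT and 26 in HET were at start peaks, and 19 and 17 were at members without a listed start. In WT, 33 of the 54 member start peaks rose and 2 fell, or 61.1% and 3.70%, beside 42.9% and 16.8% of the 8459 start peaks of all genes. The medians were 0.23 and 0.15. In HET, 26 rose and 0 fell, or 48.1% and 0%, beside 36.2% and 21.9%, with medians of 0.17 and 0.07. The 0 comes from the edgeR quasi-likelihood test, where 30 of the 54 had an unadjusted p under 0.05 in either direction, and DESeq2 called 2 lower. With all libraries thinned to 1 depth, 16 of the 54 were called higher in HET, beside 22.3% of all peaks. The share of all start peaks at that depth is not given here. Downstream peaks showed the reverse: 1 of 23 rose and 5 fell in each genotype, or 4.35% and 21.7%, beside 15.8% and 36.5% of all 4475 such peaks in WT and 12.5% and 44.0% in HET. Their medians were -0.09 in WT and -0.18 in HET, against -0.19 and -0.22 over all genes.

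**Figure D4:**
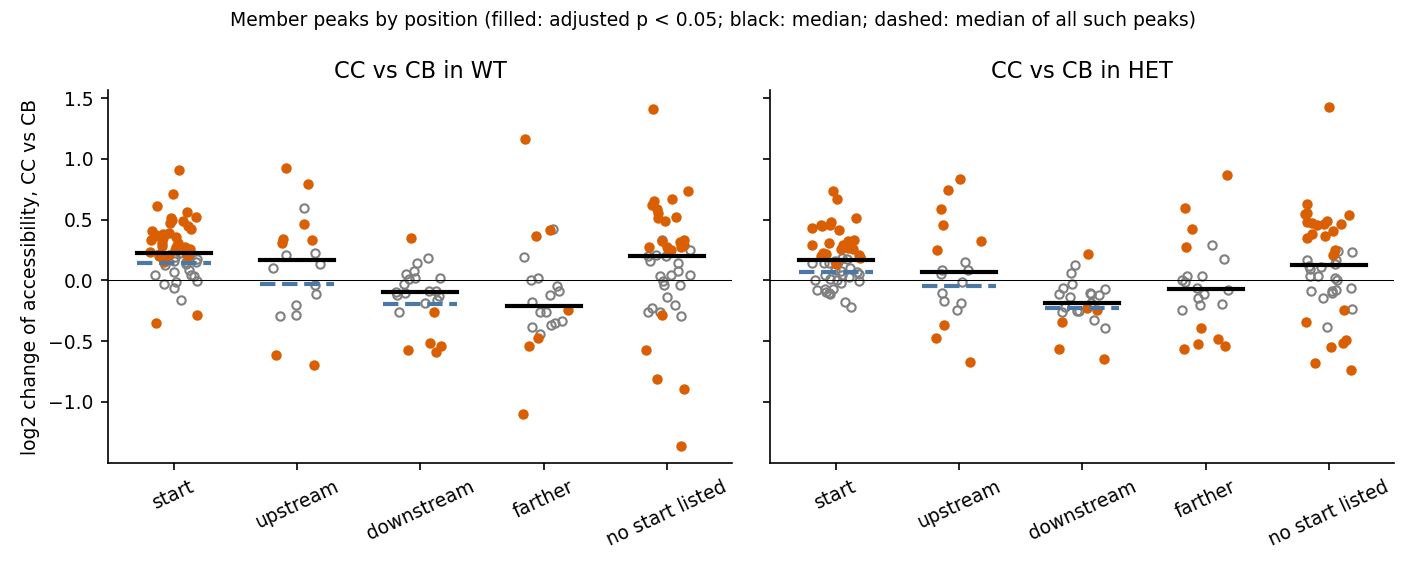
Log2 change of accessibility from CB to CC for each of the 161 member peaks by position class, in WT (left) and HET (right). Filled points passed an adjusted p of 0.05, black bars are member medians, and dashed bars are medians of all peaks of the class, drawn where the class was defined for all genes. Start peaks have medians of 0.23 and 0.17 and downstream peaks of -0.09 and -0.18.

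The contrast held within genes. At all 22 members with both a start and a downstream peak, the log2 change of the start peak was above that of the downstream peak, in WT and in HET, by a median of 0.44 and 0.39. The same order was found at 83.7% and 83.1% of 3445 genes, with medians of 0.38 and 0.32. At Rpl34, the start peak went from 52.8 to 61.5 CPM in WT CB to 58.1 to 73.9 in WT CC, while the peak 805 bp downstream went from 14.7 to 18.5 to 7.07 to 18.6. At Rpl35, the start peak rose from 38.9 ± 0.409 to 44.7 ± 3.78 CPM in WT (SD, n = 4), without overlap, and the peak 574 bp downstream fell by 0.59 on the log2 scale, from at most 12.6 CPM in WT CB to at most 10.6 in WT CC. At Rps21, the start peak rose by 0.31 in WT, and a peak centered 751 bp upstream fell by 0.69 in WT and by 0.67 in HET, from 19.0 to 20.7 CPM in WT CB to 11.2 to 13.3 in WT CC.

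The deepest fall of any member peak was at an internal peak of Rpl36, 1890 bp from its nearest gene end, which dropped by 1.36 in WT and by 0.74 in HET on the log2 scale. It held 9.14, 10.3, 9.83 and 9.09 CPM in WT CB and 3.06, 2.94, 4.79 and 4.10 in WT CC. In HET it averaged 10.6 ± 0.487 (SD, n = 4) in CB and held 6.54, 5.01, 5.85 and 8.07 in CC. All CC libraries were below all CB libraries, and HET CC lay above WT CC. That genotype difference was 0.76 with an adjusted p of 0.0856 over all peaks in edgeR, and it was called by DESeq2 (0.75, adjusted p = 0.0358) and in the edgeR fit of genes without shared peaks, where it is the only peak of Rpl36 (0.76, adjusted p = 0.0471).

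**Figure D5:**
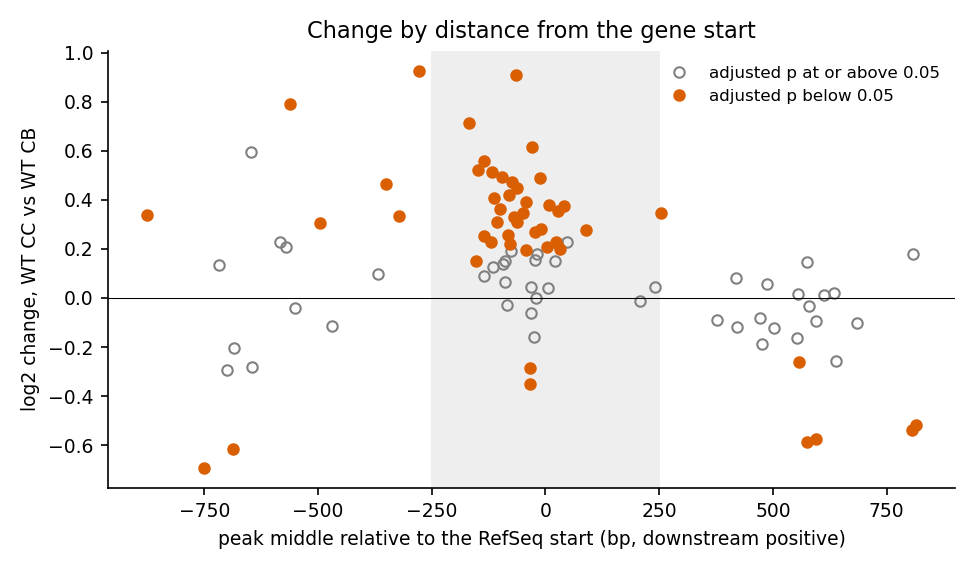
Log2 change from WT CB to WT CC of member peaks against the distance of the peak middle from the RefSeq start, with the window in which a 501 bp peak covers the start shaded. Within 250 bp 33 of 54 peaks rose, and from 251 to 1000 bp downstream 5 of 23 fell.

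Start peaks with and without 2 of the 3 sequences had close medians. The median WT change was 0.23 for the 31 start peaks whose promoter held CTTTCC and 0.23 for the 23 without it. With CCGGAAG it was 0.21 (21 peaks), without 0.23 (33 peaks), and with CTCGCGAG it was 0.15 (5 peaks) against 0.23 (49 peaks). Over all genes the medians with and without were 0.16 and 0.14 for CTTTCC, 0.09 and 0.17 for CCGGAAG, and 0.18 and 0.15 for CTCGCGAG. Of the 2 start peaks that fell, that of Rpl6 has CCGGAAG just after the start and that of Rpl13 has none of the marked sequences.

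The comparison of HET with WT asks what the loss of 1 Smarca4 copy does at these genes in each cell state. In CB, 0 of 81 members and 0 of their 161 peaks were called (edgeR), where 0.0278% of all genes were called higher and 0.187% lower, and 0.00243% and 0.127% of all peaks. At an unadjusted p under 0.05 there were 9 member genes and 7 member peaks, or 11.1% and 4.35%, beside 9.49% of all genes and 7.90% of all peaks, and DESeq2 called 0 of either. Over all features DESeq2 called 0.458% of genes higher and 0.653% lower in CB, and 0.145% and 0.642% of peaks. In edgeR the median log2 change was 0.02 for members and 0.02 for all. Rps12 had 30.4 ± 0.511 CPM in WT CB and 30.9 ± 1.03 in HET CB (SD, n = 4), and its 95% interval for the log2 change ran from -0.11 to 0.15. For Rpl37 the interval was -0.04 to 0.16, and for Rps23 -0.12 to 0.08.

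In CC, 0 members were called higher and Rps6 was called lower, or 0% and 1.23%, beside 2.17% and 4.63% of all genes. In the same comparison 4 of 8 germinal center markers were called higher (median 0.26) and 4 of 9 T cell markers lower (median -0.28), and their part in the values of the members was not tested. Over all genes the split was 313 higher and 667 lower, and it turned to 394 and 322 when the scaling factors were taken from peaks near gene ends only and to 436 and 326 with total counts. At an unadjusted p under 0.05 there were 10 member genes and 18 member peaks, or 12.3% and 11.2%, beside 22.0% of all genes and 17.2% of all peaks, and the gene median of members was -0.05 against -0.03. Of the member peaks 0 were called, beside 1.08% higher and 0.979% lower of all peaks, or 1081 and 462 peaks in place of 889 and 805 with scaling from gene ends and 1168 and 490 with total counts. DESeq2 called 5 members lower in HET CC, namely Rpl7, Rplp1, Rps23, Rps25 and Rps6, and 6 of the member peaks lower and 1 higher. Over all features DESeq2 called 8.4% of genes lower and 3.44% higher there, and 3.04% of peaks lower and 2.62% higher.

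Rps6, the small subunit protein phosphorylated by the S6 kinases downstream of mTORC1, held 78.6, 68.6, 78.6 and 72.5 CPM in WT CC and 67.6, 63.6, 62.1 and 62.9 in HET CC. The HET libraries were all below the WT libraries, by -0.22 ± 0.071 (adjusted p = 0.0491). In CB it held 58.4, 55.3, 58.6 and 57.7 in WT and 56.3, 60.7, 59.4 and 58.8 in HET, which overlap. The call was close to the threshold: its adjusted p was 0.0997 with scaling from peaks near gene ends, 0.116 with total counts, and between 0.0314 and 0.122 when a library was left out. It was at 0.122 without WT CC library 1, 0.114 without library 3, and 0.0579 without library 4, and at 0.108, 0.0677 and 0.116 without HET CC libraries 2, 3 and 4. Its start peak alone, at 64.2, 60.1, 62.9 and 62.1 CPM in WT CC and 57.1, 53.3, 49.3 and 50.9 in HET CC, gave an adjusted p of 0.0748.

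Other members near the threshold in CC were Rps25, Rplp1, Rpl7 and Rps23. Rps25, a small subunit protein, held 55.3, 73.9, 63.7 and 59.4 CPM in WT CC and 61.6, 45.6, 53.6 and 46.4 in HET CC, which overlap (-0.29, adjusted p = 0.0524). Its adjusted p was 0.0438 with median-of-ratios factors, 0.0481 with the quartile filter, and 0.0353, 0.00859 and 0.0441 without WT CC library 1, HET CC library 1 or HET CC library 3. Rplp1 held 33.6, 35.9, 35.2 and 32.8 CPM in WT CC and 30.6, 28.6, 21.9 and 27.9 in HET CC, without overlap (-0.33, adjusted p = 0.054). For Rplp1 the adjusted p was 0.0448 with median-of-ratios factors, 0.0449 with the quartile filter and 0.027 without HET CC library 1. Rpl7 differed by -0.17 (adjusted p = 0.0832) and Rps23 by -0.18 (adjusted p = 0.0919). For Rpl7 the adjusted p was 0.0273, 0.0394 and 0.0465 without WT CC library 4, HET CC library 1 or HET CC library 3. Without peaks shared between genes it was 0.0414. For Rpl13a the difference was 0.00 with a 95% interval of -0.15 to 0.16, and for Rpsa it was 0.00 with an interval of -0.16 to 0.16.

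The interaction, which asks whether the HET effect differs between CC and CB, or equally whether the change from CB to CC differs between the genotypes, called 0 members and 0 of their peaks in edgeR, beside 0.146% of all genes higher and 0.111% lower and 0.128% and 0.0316% of all peaks. At an unadjusted p under 0.05 there were 6 members and 9 member peaks, or 7.41% and 5.59%, beside 13.9% of all genes and 11.4% of all peaks, and the median was -0.07 for members and -0.04 for all genes. DESeq2 called Rps6 and 1 member peak lower in the interaction. Over all features it called 2.85% of genes lower and 0.847% higher, and 0.63% of peaks lower and 1.01% higher. Fewer members were thus called from CB to CC in HET than in WT without a difference at any single member that passed the edgeR test. The difference between those counts was not itself tested. For Rps6 the interaction was -0.25 ± 0.086 (adjusted p = 0.165), since it rose by 0.38 in WT and changed by 0.12 in HET, and for Rpl37 it was -0.18 ± 0.084 (adjusted p = 0.32).

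Genes that work with the ribosomal proteins were described by lists. A list of 17 genes held ribosomal proteins outside the naming rule, translation factors whose messages also carry a TOP sequence, and other genes such as Hnrnpa1. Of these, 10 rose from CB to CC and 1 fell in WT, and 9 rose and 3 fell in HET, with medians of 0.33 and 0.32. The shares higher were 58.8% and 52.9%, beside 37.1% and 33.1% of all genes. Eef1a1, the elongation factor that delivers tRNA, rose by 0.61 in WT, from 89.0 ± 2.40 CPM to 136 ± 15.0 (SD, n = 4). Pabpc1, the poly(A)-binding protein, rose by 0.45 in WT and 0.43 in HET, and Eif3f, a subunit of initiation factor 3, by 0.53 in HET.

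Of 39 ribosome biogenesis genes, 11 rose and 8 fell in WT, and 8 rose and 14 fell in HET, with medians of -0.07 and -0.10. That is 28.2% and 20.5% in WT, beside 37.1% and 25.7% of all genes, and 20.5% and 35.9% in HET, beside 33.1% and 28.6%. Heatr1, needed for transcription and processing of ribosomal RNA, rose by 0.85 and 0.69, from 49.7 ± 2.90 CPM in WT CB to 89.7 ± 8.69 in WT CC. Wdr12, of the PeBoW complex that matures the large subunit, rose by 0.44 in WT. Eif6, which keeps the subunits apart until the large subunit is finished, fell by 0.58 on the log2 scale in HET.

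Mitochondrial ribosomal proteins, which share a name and a fold with some members but serve another ribosome, were counted the same way. Of 73 with a peak, 22 rose and 19 fell in WT and 20 rose and 25 fell in HET, with medians of 0.01 and -0.07. The shares were 30.1% and 26.0% in WT and 27.4% and 34.2% in HET, beside the same shares of all genes as above. Of their 57 start peaks, 17 rose and 14 fell in WT, or 29.8% and 24.6%, beside 42.9% and 16.8% of all start peaks, with a median of -0.02 where the cytosolic members had 0.23. Mrpl18 rose by 0.56 in WT and 0.46 in HET, and Mrpl32 rose by 0.54 in HET. Mrpl3 fell by 0.95 on the log2 scale in WT, from 29.7 ± 0.857 CPM to 15.4 ± 2.81, and was higher in HET CC than in WT CC by 0.67 (adjusted p = 0.0018), at 24.6 ± 2.46. Mrpl48 was lower in HET CC than in WT CC by -0.30 (adjusted p = 0.00407). The difference between the cytosolic and mitochondrial lists was not tested.

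A list of 14 genes covered the control of TOP messages and the phosphorylation of ribosomal proteins. Of these, 6 were higher and 6 lower in WT and 4 higher and 5 lower in HET. That is 42.9% each way in WT and 28.6% and 35.7% in HET. Over all genes 37.1% were higher and 25.7% lower in WT, and 33.1% and 28.6% in HET. Rptor, the defining subunit of mTORC1, fell by 0.46 on the log2 scale in WT and by 0.44 in HET, from 113 ± 2.90 CPM in WT CB to 82.2 ± 3.51 in WT CC. Mlst8, a subunit of both mTOR complexes, rose by 0.77 in HET, and Larp4b, an RNA-binding protein of the La-related family, rose by 0.56 in WT. Of 5 genes that watch over ribosomal proteins, 3 rose and 0 fell in WT, and 3 rose and 1 fell in HET. The share higher was 60.0% in each genotype, beside 37.1% and 33.1% of all genes, and rests on only 5 genes. Among them Mdm2, the ubiquitin ligase of p53, rose by 0.36 in WT and 0.20 in HET. Of these 5 lists only the mitochondrial held genes that passed the edgeR test between HET and WT in CC, 2 higher and 1 lower, and in CB 0 genes of any of the 5 passed.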

How the data were processed

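Raw counts per 501 bp peak were used as deposited by the authors, 1 table for all 16 libraries, with 0 columns of other samples. Per the submitters' processing notes, FastQC, BWA, deepTools, R 4.2.1 and mm10 were used; the sources used here do not give peak calling or counting. Peaks were summed per protein-coding gene over its span with 1 kb margins and tested with edgeR 4.0.16 in R 4.3.3 (TMM, filterByExpr, which removed 0 features, robust quasi-likelihood fit of all 16 libraries with 1 coefficient per group, Benjamini-Hochberg over all 82188 peaks or 14402 genes, threshold 0.05). The scripts were tested on simulated data. Errors of log2 changes are SE, and 95% intervals cover the fit only. Alternatives, among them DESeq2 1.42.0, are in the closing section. The members and lists were chosen with earlier results of these data known. Named were, per comparison, up to 4 members called higher and up to 4 called lower with the smallest p, the P stalk and Rpsa, members with a role outside the ribosome or in disease, paralogs, the 3 highest and 3 lowest per peak, those with the most peaks, and up to 2 genes per other list with the smallest p. Rpl6 and the single peaks were named after their values were seen, and the 250 bp limit for a start peak and the letters CTCGCGAG, part of a longer palindrome, were chosen then too. Results of some members that the rule names are not reported here, but those members stay in all counts and medians.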

Additional observations from a re-analysis of the deposited data

Results flagged for a closer look

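In 6 of 164 groups of 4 libraries, taken from the 37 named members with a peak and 4 shares or ratios of member counts, 1 library stood apart from the other 3 by Dixon's test. Chance does so in about 1 in 20 groups. Rps23 held 75.7 CPM in WT CB library 3, where the others held 79.1 to 79.7. Rps19bp1 held 27.5 CPM in HET CB library 2 against 23.9 to 24.0. Rpl22l1 held 89.5 CPM in WT CC library 4 against 64.8 to 66.2, and Rpl7 held 135 CPM in the same library against 156 to 160. Rpl7l1 held 59.3 CPM in HET CC library 3 against 48.6 to 49.8, and Rpl8 held 25.9 CPM in HET CC library 2 against 32.4 to 33.8.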

How the results depend on the processing

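Of 505 recomputed counts and medians, 463 kept their value within the tolerance and 42 did not. With the gene span alone, which drops peaks before a start and leaves 52 members, 14 rose from CB to CC in WT (median 0.0723) and 12 rose and 7 fell in HET (median -0.0349), and the changes of Rpl5 (-0.256) and Rps6 (-0.0941) in WT and of Rpl7l1 (-0.206) and Rplp0 (-0.106) in HET changed sign. With 5 kb margins 11 of 84 members fell in WT and 13 in HET, beside 27.0% and 29.2% of all genes. With all libraries thinned to 3494356 counts 2 genes fell in WT, beside 22.0% of all genes. In HET 1 gene and 12 peaks fell at that depth, beside 21.2% of all genes and 19.7% of all peaks. Rises were fewer too, with 16 of the 54 member start peaks called higher in HET at that depth in place of 26. DESeq2 called 6 genes lower from CB to CC in HET, 5 genes and 6 peaks lower and 1 peak higher in HET CC, and 1 gene and 1 peak in the interaction. From CB to CC in HET it called 31.9% of all genes lower. Its shares of all features in HET CC and in the interaction are given above. Members lower in HET CC numbered 3 with median-of-ratios factors or the quartile filter, and 0 with total counts, scaling from gene ends, the 2 groups alone, thinning or the gene span. Of all genes, 5.39% were lower with median-of-ratios factors and 6.14% with the quartile filter. At the settings that gave 0 members, 1.33% to 3.41% of all genes were lower. Leaving out peaks shared between genes gave 1 of 68 members higher in HET CC, beside 2.40% of all genes. With the 2 groups alone, 1 gene was lower in HET CB, with 1 peak higher and 1 lower. Over all features 1.17% of genes were then lower, and 0.329% of peaks were higher and 0.92% lower. Leaving out a library gave 0 to 5 genes and 0 to 3 peaks lower in HET CC, 2 to 5 genes and 10 to 21 peaks lower from CB to CC in WT, and 2 to 5 genes lower in HET. Deviations of same-numbered libraries correlated at 0.0464 to 0.0515 between WT CB and WT CC, above those of other numbers (-0.0536 to 0.0415). Between HET CB and HET CC the values were 0.0324 to 0.0714 for equal numbers and -0.0627 to 0.0501 for others. Between CB and CC, 8 of 8 WT libraries and 5 of 8 HET libraries matched their own number best. Between the genotypes 0 of 8 did so in CB or in CC. Equal numbers there gave -0.154 to -0.122 in CB and -0.0255 to 0.0086 in CC. Libraries 1 and 3 of WT CB correlated with 2 and 4 of HET CB, and 2 and 4 with 1 and 3 (up to 0.156). No fit here models that structure. What equal numbers share is not stated in the labels. With a replicate block, 0 members were lower in HET CC (Rps6 adjusted p 0.0697), beside 4.23% of all genes. Start peaks taken within 400 bp, a limit chosen after seeing the data, gave 37 of 60 higher and 2 lower in WT and 30 higher in HET. Of all 9643 peaks within that distance, 42.4% were higher and 17.5% lower in WT, and 35.9% and 22.3% in HET. The part of the lower CC depth in rises and falls, at weak peaks too, was not tested beyond the thinning above.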

Other observations

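Within each group the ratio of member start counts to member downstream counts fell into pairs of libraries. In WT CB it was 5.31 and 5.17 in libraries 1 and 3 and 5.63 and 5.73 in libraries 2 and 4, and in WT CC it was 6.42 and 6.34 in libraries 1 and 3 and 7.63 and 7.82 in libraries 2 and 4. In HET CB it was 5.22 and 5.23 in libraries 2 and 4 and 5.64 and 5.60 in libraries 1 and 3, and in HET CC it was 6.64 and 6.31 in libraries 2 and 4 and 7.23 and 7.25 in libraries 1 and 3. The same libraries were thus low in CB and CC of a genotype, and the gap between CB and CC was present at either level. The labels name no batch, and the cause was not tested.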
